A study of Homo sapiens with 9 samples.

Results

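This account covers the SW1783 cells given a 70% ethanol extract of Atractylodis Rhizoma, set against the vehicle cells of the same experiment. It uses 6 of the 9 RNA-seq libraries. There were 3 vehicle libraries (DMSO, replicates 1 to 3) and 3 treated libraries, 1 each at 20, 100 and 500 µg/mL, all of which carry the replicate number 2. The libraries are defined by their sample labels, without a cut on expression values. The gene lists were chosen with earlier results of these data known. SW1783 is an established human astrocytoma line, and 1 line was used. All cells grew in Leibovitz L-15 supplemented with 10% serum (fetal bovine), and every library was labelled as a treatment of 24 h. The vehicle is 0.1% DMSO by its labels and 2% by the design text, which could not be settled here, and no DMSO percentage is given for the treated wells. The other 3 libraries hold an extract of Poria Cocos at the same 3 concentrations and share the vehicle libraries. The labels do not say whether the vehicle replicates were separate cultures, so the p-values measure the spread between these libraries, which may be technical.

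Atractylodis Rhizoma is the dried rhizome of Atractylodes plants, used in East Asian herbal medicine and known for sesquiterpenoids such as the atractylenolides. Several stress programmes in cultured cells are read out by well-known target genes. NRF2 is a transcription factor held down by KEAP1 until electrophiles or oxidants modify KEAP1, after which it raises genes of glutathione supply, quinone reduction and iron storage. The integrated stress response works through ATF4, which raises genes of amino acid uptake and synthesis. SREBF2 raises cholesterol synthesis and uptake genes when membrane sterol is low. YAP, together with its partner TEAD, and the actin-sensing factor MRTF keep cytoskeletal and matrix genes high in spread, contractile cells.

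The 6 libraries held between 40269708 and 44035556 counts, and between 24530 and 25083 genes had counts. Of 60675 genes in the table, 18356 were tested. Levels are given as CPM, counts scaled to library size with TMM factors, in the order of the libraries, and are not scaled by gene length. The first test was a slope per dose step, in log2 units, over vehicle, 20, 100 and 500 µg/mL. A gene was called at a Benjamini-Hochberg adjusted p under 0.05 in edgeR's quasi-likelihood test. The vehicle libraries lay close together, with a chi-square per degree of freedom between 2.36 and 3.24 for their pairs, and none was a repeat deposit of another. Between vehicle and the treated libraries that quantity ran from 12.78 to 15.55 at 20 µg/mL, from 17.27 to 18.43 at 100 µg/mL and from 23.68 to 28.6 at 500 µg/mL. The first principal component held 49.4% of the variance, mostly set treated apart from vehicle libraries, and ordered the treated ones by concentration. Vehicle lay between -13.12 and -12.26, 20 µg/mL at 2.6, 100 µg/mL at 6.54 and 500 µg/mL at 9.81. The Poria libraries followed the same course, at 3.58, 6.81 and 8.33. All titles name batch D, yet vehicle and treated columns carry different name prefixes, whose meaning is not given. Extract and any difference between these sets of columns cannot be told apart. The library at 20 µg/mL stood apart on the second component, at 10.98 against 1.49 and 3.02 for the higher concentrations and between -0.96 and -0.94 for vehicle. Poria at 500 µg/mL lay about as far out on the other side, at -10.78. The third component (12.6% of the variance) held Atractylodis at 20 and 500 µg/mL at opposite ends, at 8.4 and -8.37. Values without the 20 µg/mL library are given beside the counts and the slopes within the treated libraries that it moved.

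**Figure D1:**
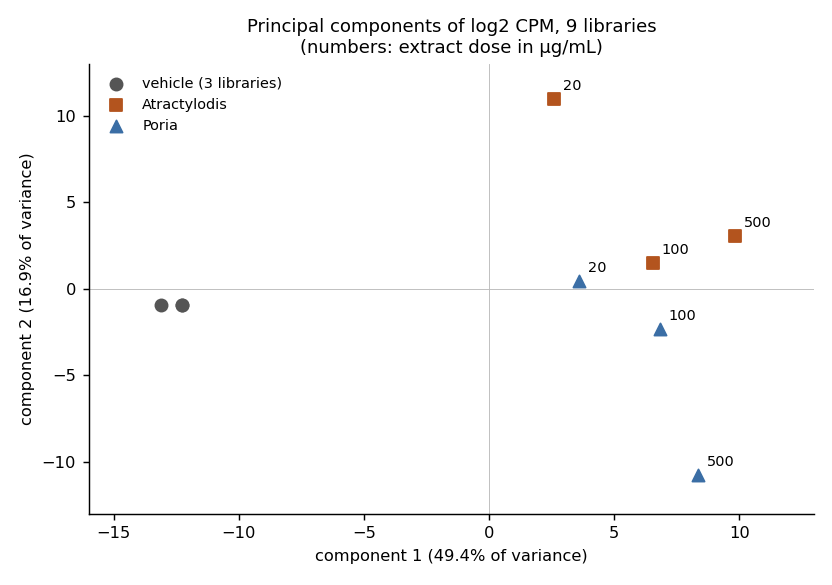
First and second principal components of log2 CPM for the 9 libraries, with the share of variance on each axis and 1 point per library. Vehicle sits at the left between -13.12 and -12.26 on the first component, and the Atractylodis libraries follow in the order 20, 100 and 500 µg/mL, with 20 µg/mL at 10.98 on the second component.

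The labelled cell type was checked against markers. GFAP, the intermediate filament of astrocytes, had 0 to 4 counts in each of the 6 libraries, the water channel AQP4 had 0 to 2, and the calcium-binding protein S100B had 1 to 7. The defining astrocyte markers were therefore near absent, while SOX9, SLC1A3 and GJA1 carried most of the astrocyte list. The oligodendrocyte markers MOG and SOX10 were at 0 in all 6 libraries. VIM, a filament of mesenchymal and astrocytoma cells, stood at 6115, 5802 and 6045 CPM in vehicle. In bulk samples such as these, fewer cells of a kind and less RNA per cell cannot be told apart.

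The sequences shown next are promoter stretches of members of the pathway lists described later, printed because each holds the motif of the factor whose list the gene belongs to. They come from RefSeq (GRCh38.p14), read 5′ to 3′ on the gene's strand, and capitals mark the motif. Windows of 300 bases, from 250 before to 50 after each start site, were searched on both strands, over 12298 tested genes with a window. The searched letters were TGACNNNGC for the antioxidant response element bound by NRF2, TGATGNAA for the element bound by ATF4 with CEBP partners, and GGAATG for TEAD. A sterol regulatory element was searched for too, as were letters for lists of AHR targets, endoplasmic reticulum chaperones, metallothioneins and heat shock genes. A match is a description of the letters and not a measured binding site.
TXNRD1, chr12:104215660-104215708, plus strand: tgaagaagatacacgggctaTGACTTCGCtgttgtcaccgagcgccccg
GCLM, chr1:93909436-93909484, minus strand, motif in reverse complement: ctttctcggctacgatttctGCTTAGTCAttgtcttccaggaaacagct
ME1, chr6:83431160-83431208, minus strand: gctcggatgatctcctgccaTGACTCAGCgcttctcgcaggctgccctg
ASNS, chr7:97872449-97872496, minus strand: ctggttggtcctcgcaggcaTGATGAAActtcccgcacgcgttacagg
CHAC1, chr15:40953242-40953289, plus strand, motif in reverse complement: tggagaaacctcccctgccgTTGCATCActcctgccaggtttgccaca
CCN2, chr6:131951516-131951561, minus strand: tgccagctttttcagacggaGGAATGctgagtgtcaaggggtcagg
CCN2, chr6:131951451-131951496, minus strand: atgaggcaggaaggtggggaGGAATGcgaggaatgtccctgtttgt
ANKRD1, chr10:90921190-90921235, minus strand: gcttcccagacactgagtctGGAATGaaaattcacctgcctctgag
The NRF2 letters were in the windows of 4 of 18 NRF2 list members that had one, or 22.2%, against 15.0% of all tested genes with a window. The ATF4 letters were in 4 of 19 members of its list, or 21.1%, against 1.8% of tested genes. The TEAD letters were in 4 of 13 members of the TGF-beta and YAP list, or 30.8%, against 11.1%. Of 17 cholesterol genes with a window, SREBF2 itself held the sterol element. The letters searched for the chaperone list were in 6 of 19 members, or 31.6%, against 0.1%. They were in 0 of the 2 members with a window called along the dose trend. The stretches printed are all from genes called along that trend, while PGD and ATF3 held the letters of their lists without a called slope.

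The dose trend was called in 3495 of the 18356 genes, or 19.0%, of which 1559 rose (8.49%) and 1936 fell (10.5%). A level step from vehicle to all treated libraries can also pass this slope. Of 54 plateau genes described later, 29 were called by it and 1 by the slope over the treated libraries alone. The latter slope was called in 742 genes (4.04%). The changes were mostly small. Among 11565 genes whose log2 CPM averaged at least 2, the median absolute log2 difference from the vehicle mean was 0.095 at 20 µg/mL, 0.121 at 100 µg/mL and 0.138 at 500 µg/mL. Those that differed at least 1.5-fold numbered 79, 85 and 180 at the same concentrations. Against vehicle, single doses called 3213 genes at 20 µg/mL (17.5%), 4631 at 100 µg/mL (25.2%) and 5692 at 500 µg/mL (31.0%), where the spread is taken from the vehicle libraries, since each dose is 1 library. DESeq2 called 440, 859 and 1353 genes in these comparisons, and such a test holds no measure of the variation between treated cultures. The 3 treated libraries as a group differed from the 3 vehicle libraries in 4038 genes (22.0%), 1895 higher (10.3%) and 2143 lower (11.7%). In 3511 genes (19.1%) all 3 treated libraries lay above all 3 vehicle libraries, and in 3510 (19.1%) they lay below. A strict order from the highest vehicle library through 20, 100 and 500 µg/mL was followed upward by 1126 genes (6.13%) and downward by 1264 (6.89%). Genes called as falling had a median GC content of 55.8% and genes called as rising 41.6%, against 48.2% for all tested genes. The Spearman correlation of GC content with the log2 difference from vehicle was -0.159, -0.518 and -0.415 at 20, 100 and 500 µg/mL. Under Poria it was -0.453, -0.492 and -0.416, and in the vehicle libraries it lay between -0.085 and 0.135. After correction for GC content and length, 2092 of the 3495 calls were kept in the same direction.

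Many NRF2 genes rose with concentration, and most of their rise fell between 100 and 500 µg/mL. Of 26 members tested, 15 rose along the dose trend and 0 fell (8.49% and 10.5% of all genes). The median slope was 0.10 against 0.00 for all genes tested. With the 3 treated libraries against the 3 vehicle libraries, 3 members rose and 0 fell (10.3% and 11.7% of all genes). The median log2 difference of the members from vehicle was 0.02, 0.09 and 0.33 at 20, 100 and 500 µg/mL. At 500 µg/mL against vehicle 22 rose and 0 fell (14.4% of all genes rose), whereas at 20 µg/mL 7 rose and 3 fell (7.51% and 10.0% of all genes). Without the library at 500 µg/mL the trend count dropped from 15 to 4, and without that at 20 µg/mL it stayed at 15. Library totals in place of TMM scaling gave 19 and the GC correction 17.

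AKR1B10 (ENSG00000198074, chr7:134527592-134541408, plus strand), a reductase of aldehydes and ketones, stood at 3.13, 3.39 and 3.17 CPM in vehicle and at 4.44, 5.42 and 7.52 at 20, 100 and 500 µg/mL. Each concentration exceeded the one before it, and no treated library overlapped the vehicle range. Its slope was 0.40 ± 0.04 (SE) per step, with an adjusted p of 9.7e-06. SLC7A11 (ENSG00000151012, chr4:138164097-138242349, minus strand), the cystine importer that feeds glutathione synthesis and a member of the ATF4 list too, stood at 94.6, 94.3 and 97.1 CPM in vehicle and at 111, 134 and 207 with extract. The climb steepened with concentration, and the groups did not overlap. A departure from the log-linear trend was called for it in edgeR (adjusted p = 0.00033) and not in DESeq2 (adjusted p = 0.17). NQO1, the quinone reductase, was at 128.8, 129.8 and 130.2 CPM in vehicle and at 165, 172.6 and 237.3 with extract, so that 20 and 100 µg/mL lay close together and 500 µg/mL well above both. The AKR1C genes, hydroxysteroid dehydrogenases, share near-identical sequence, and how reads were split between them is uncertain. AKR1C1 was listed at 20.1, 20.1 and 20.0 CPM in vehicle and at 24.9, 25.3 and 41.1 with extract, a slope of 0.32 ± 0.045 (adjusted p = 0.0019), which was not called without 500 µg/mL (0.21, adjusted p = 0.053).

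GCLM, ME1 and TXNRD1 of the NRF2 list rose with smaller steps. GCLM, the modifier subunit of the enzyme that makes gamma-glutamylcysteine, was at 83.7, 83.1 and 89.9 CPM in vehicle and at 84.7, 94.9 and 121.4 with extract. Only the 2 higher concentrations left the vehicle range. Its slope of 0.15 ± 0.03 (adjusted p = 0.0035) was not called after GC correction (0.11, adjusted p = 0.086) or without 500 µg/mL (0.08, adjusted p = 0.20). ME1, malic enzyme and a source of NADPH, was at 11.6, 11.97 and 12.2 CPM in vehicle and at 13.4, 14.4 and 19.0 with extract, a slope of 0.195 (adjusted p = 0.00051) that was lost without 500 µg/mL (0.12, adjusted p = 0.10). TXNRD1, the thioredoxin reductase whose promoter stretch is printed earlier, was at 291, 301 and 294 CPM in vehicle and at 301, 302 and 364 with extract. It left the vehicle range clearly at 500 µg/mL alone, and its slope of 0.10 passed narrowly (adjusted p = 0.049). That call was lost without 500 µg/mL (0.04, adjusted p = 0.63), 20 µg/mL (adjusted p = 0.081) or any vehicle replicate (adjusted p from 0.051 to 0.089), and after GC correction (0.08, adjusted p = 0.17). PGD, TALDO1 and TKT of the pentose phosphate pathway did not pass the trend test, with slopes between 0.01 and 0.04.

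HMOX1 (ENSG00000100292, chr22:35380361-35394214, plus strand), heme oxygenase, differed in shape from AKR1B10. It was at 86.8, 85.8 and 87.8 CPM in vehicle, at 77.1 at 20 µg/mL, at 85.6 at 100 µg/mL and at 202.3 at 500 µg/mL. The 500 µg/mL library alone was high, 2.33-fold over vehicle (log2 1.22), and 20 µg/mL was slightly below vehicle. The log-linear slope was not called (0.35, adjusted p = 0.075) while the departure from it was (adjusted p = 5.9e-13), also in DESeq2, a call that rests on 1 library at the top concentration. FTH1, the ferritin heavy chain that stores iron, was at 1507, 1486 and 1504 CPM in vehicle and at 1452, 1543 and 2093 with extract. Its slope of 0.13 (adjusted p = 0.012) was likewise set by 500 µg/mL and fell to 0.02 without it (adjusted p = 0.70). FTL, the light chain, was at 1183, 1070 and 1165 CPM in vehicle and at 1302, 1178 and 1719 with extract, and its slope was not called (0.17, adjusted p = 0.055).

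**Figure D2:**
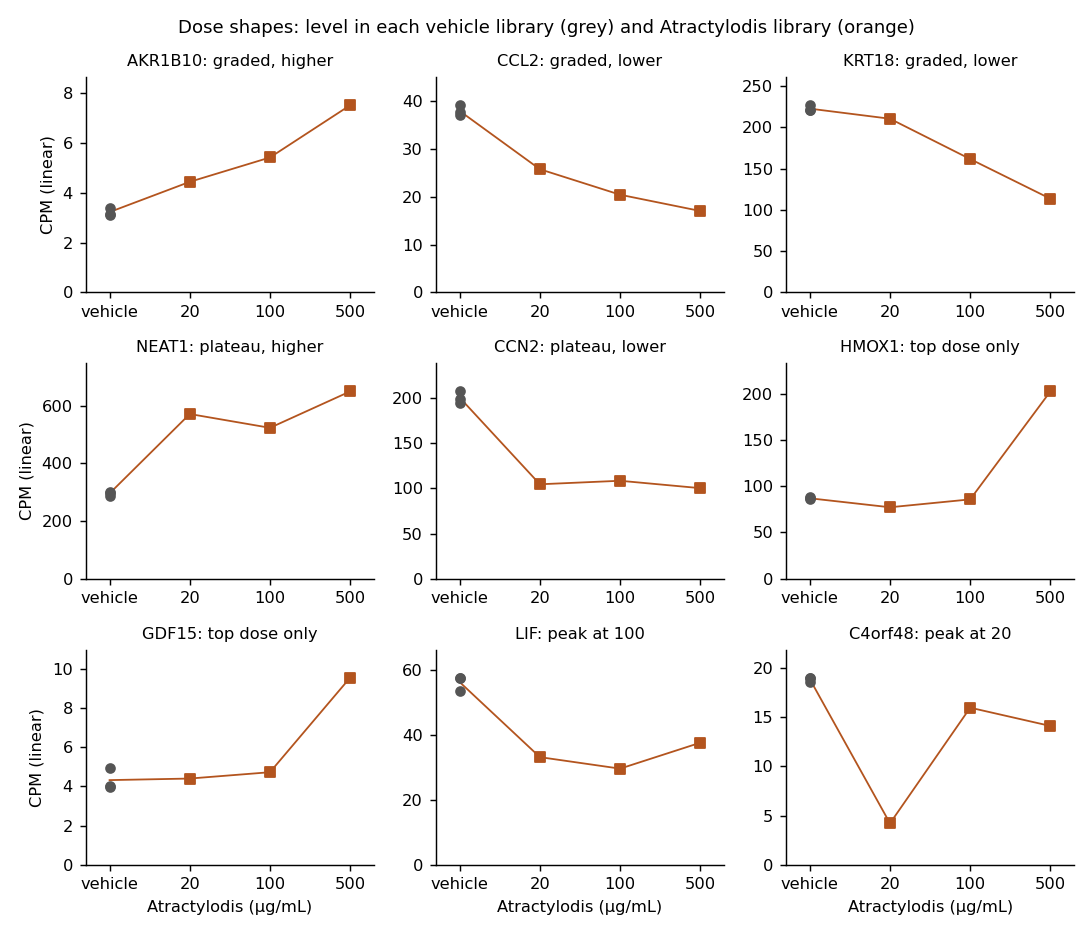
CPM on linear axes for 9 genes in the 3 vehicle libraries (grey points) and in the Atractylodis libraries at 20, 100 and 500 µg/mL (orange squares, 1 library per concentration). AKR1B10 climbs at each concentration, and HMOX1 and GDF15 are high at 500 µg/mL alone. CCN2 is near its final level from 20 µg/mL on, and C4orf48 is by far the lowest at 20 µg/mL, at 4.22 CPM.

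Many genes of the integrated stress response were higher at the highest concentration. Of 24 tested, 10 rose along the dose trend and 0 fell (8.49% of all genes rose), with a median slope of 0.07. With the 3 treated libraries against the 3 vehicle libraries, 2 rose and 2 fell (10.3% and 11.7% of all genes). The median log2 difference from vehicle was 0.00, 0.01 and 0.28 at 20, 100 and 500 µg/mL. At 500 µg/mL 16 rose and 1 fell (14.4% and 16.6% of all genes), against 4 and 2 at 20 µg/mL (7.51% and 10.0%). Without the 500 µg/mL library 2 members rose and 2 fell along the trend, so the count was carried by that library, and library totals gave 14.

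GDF15 (ENSG00000130513, chr19:18374731-18389176, plus strand), a secreted stress cytokine that the list counts among ATF4 targets, was at 4.95, 4.02 and 3.98 CPM in vehicle and at 4.40, 4.72 and 9.54 with extract. The first and second concentrations lay within the vehicle range and 500 µg/mL was 2.21-fold over the vehicle mean. Its slope of 0.315 ± 0.07 (adjusted p = 0.011) became 0.04 (adjusted p = 0.77) without 500 µg/mL. CHAC1, which degrades glutathione, was at 5.21, 5.32 and 5.35 CPM in vehicle and at 5.16, 5.33 and 7.57 with extract, a slope of 0.14 (adjusted p = 0.026) that was 0.01 without 500 µg/mL (adjusted p = 0.95). It was also lost without vehicle replicate 1 (0.15, adjusted p = 0.052) and in DESeq2 (0.14, adjusted p = 0.070). ASNS, asparagine synthetase, was at 59.3, 60.1 and 57.9 CPM in vehicle and at 60.8, 64.7 and 85.5 with extract. It stepped up gently at the lower concentrations and more at the highest, with a slope of 0.14 (adjusted p = 0.0022), or 0.05 without 500 µg/mL (adjusted p = 0.34). DDIT4, an inhibitor of mTORC1 signalling, was graded instead, at 53.2, 55.5 and 59.4 CPM in vehicle and at 67.7, 75.2 and 89.9 with extract. All 3 treated libraries lay above vehicle in order, with a slope of 0.21 ± 0.02 (adjusted p = 6.1e-05).

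Other members of the same list did not rise. ATF4 itself, ATF3 and DDIT3, the CHOP factor, had no called slope, with that of DDIT3 at -0.01 (adjusted p = 0.89). DDIT3 was at 32.6, 35.8 and 33.8 CPM in vehicle and at 30.5, 27.9 and 36.1 with extract, and was below every vehicle library at 20 and 100 µg/mL. Over 20 chaperone and degradation genes of the endoplasmic reticulum the median slope was 0.00. Of these, EDEM1 rose and P4HB fell along the trend (8.49% and 10.5% of all genes). Without 500 µg/mL neither was called (EDEM1 0.06, adjusted p = 0.17, and P4HB -0.09, adjusted p = 0.082), and P4HB was not called without 100 µg/mL or any vehicle replicate (adjusted p from 0.089 to 0.15), with library totals or after GC correction. Against vehicle 2 rose and 6 fell at 20 µg/mL (7.51% and 10.0% of all genes). At 100 µg/mL 4 rose and 8 fell (11.3% and 13.9%), and at 500 µg/mL 6 rose and 4 fell (14.4% and 16.6%). In 7 of these chaperone and degradation genes all treated libraries lay below all vehicle libraries (19.1% of all genes). HSPA5, the main chaperone there, was at 3370, 3496 and 3595 CPM in vehicle and at 3570, 3781 and 3869 with extract, with a slope of 0.04 that was not called (adjusted p = 0.39).

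**Figure D3:**
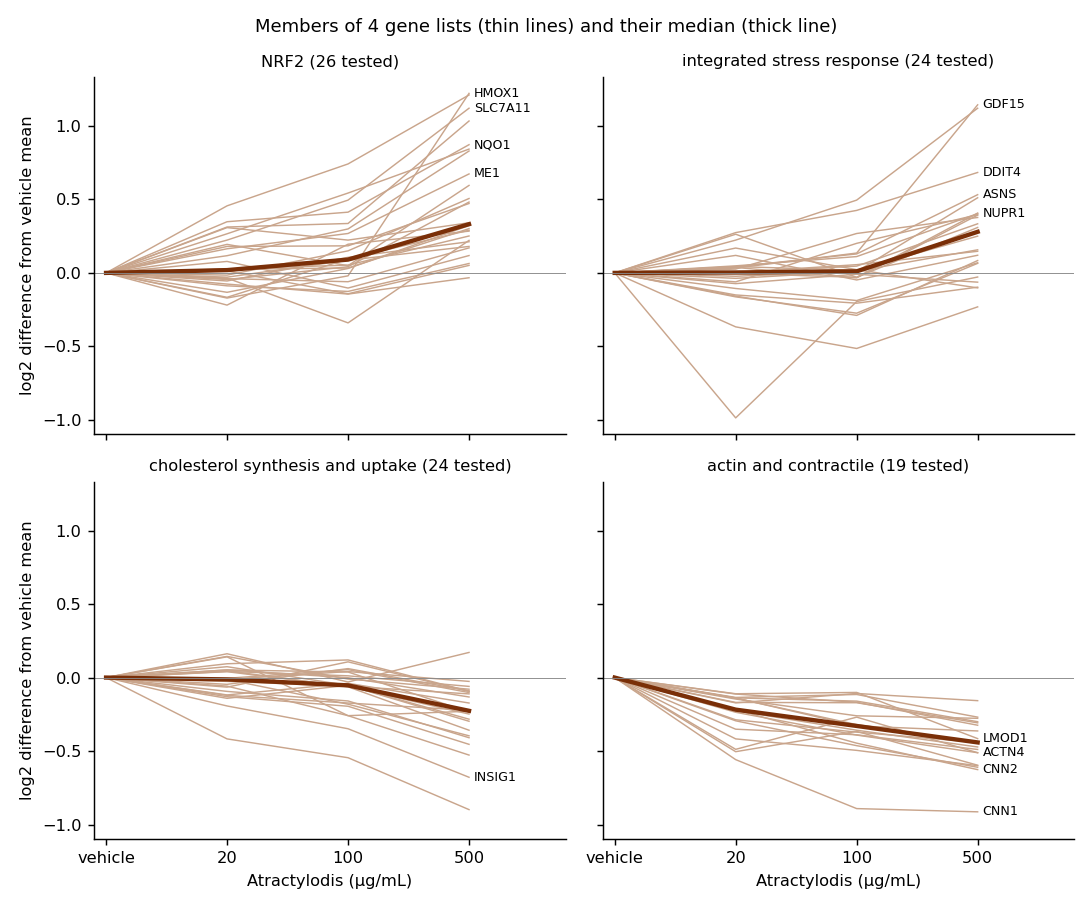
Log2 difference from the vehicle mean at 20, 100 and 500 µg/mL for the members of 4 lists, with 1 thin line per gene and the thick line as the median. NRF2 and integrated stress response members spread upward at 500 µg/mL, where their medians were 0.33 and 0.28, while cholesterol members reached -0.23 and actin members lay below vehicle from 20 µg/mL on.

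Part of the cholesterol genes fell, again late in the range. Of 24 tested, 9 fell along the trend and 0 rose (10.5% of all genes fell), with a median slope of -0.06. At 500 µg/mL 14 fell (16.6% of all genes fell), whereas at 20 µg/mL 3 fell and 1 rose (10.0% and 7.51% of all genes). The trend count was 2 without 500 µg/mL, 5 with library totals and 10 with GC correction. INSIG1, which retains the SREBP factors in the endoplasmic reticulum, was at 174.5, 173.6 and 172.3 CPM in vehicle and at 151.7, 136.3 and 108.4 with extract, each step below the last and none overlapping vehicle. Its slope of -0.20 ± 0.03 (adjusted p = 0.00056) remained called in each run that left out 1 library. ABCA1, which exports cholesterol, rose from 49.5, 50.4 and 48.4 CPM to 54.1, 55.1 and 66.9, a slope of 0.12 (adjusted p = 0.0017) that was 0.07 without 500 µg/mL (adjusted p = 0.22).

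Cytoskeletal genes fell, and had done so at the lowest concentration. Of 19 actin and contractile genes tested, 16 fell along the trend and 0 rose (10.5% of all genes fell), with a median slope of -0.145. For all 19 the 3 treated libraries lay below the 3 vehicle libraries (19.1% of all genes did so). At 20 µg/mL 17 had already fallen (10.0% of all genes), as had 17 at 100 µg/mL (13.9%). The trend count was 18 without 20 µg/mL, 10 without 500 µg/mL, and 16 after GC correction and with library totals. Actins and tubulins have near-identical copies, and the split of reads among them is uncertain.

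TAGLN, an actin-bundling protein of contractile cells, was at 366, 352 and 351 CPM in vehicle and at 267, 253 and 235 with extract. Most of its fall had occurred at 20 µg/mL, and the shape was a plateau. CNN2, a calponin, was at 292, 279 and 288 CPM in vehicle and at 246, 210 and 185 with extract, a graded fall with a slope of -0.20 ± 0.02 (adjusted p = 3.4e-05). MYL9, a myosin light chain, was at 311, 298 and 309 CPM in vehicle and at 249.5, 222 and 200.4 with extract. ACTB, beta-actin, was at 10080, 10180 and 9758 CPM in vehicle and at 8200, 7735 and 7369 with extract, with groups that did not overlap. Its slope was -0.145 ± 0.02 (adjusted p = 0.00096). ACTB is often used as a reference gene, and here it differed between the groups by more than the spread of the vehicle libraries. VIM fell too, to 5282, 5177 and 4674 CPM with extract (slope -0.11, adjusted p = 0.0020, or 0.076 without 500 µg/mL). Of 11 tubulin genes 8 fell and 0 rose along the trend (10.5% of all genes fell), or 5 after GC correction, TUBB4B from 673, 670 and 663 CPM to 563, 505 and 477.

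Most targets of TGF-beta and YAP fell. Of 17 tested, 11 fell along the trend and 0 rose (10.5% of all genes fell), with a median slope of -0.13, and TAGLN is counted in both lists. The count was 6 without 500 µg/mL and 8 without each vehicle replicate or with library totals. CCN2 (ENSG00000118523, chr6:131948176-131951373, minus strand), a matricellular protein and widely used YAP readout, was at 199.4, 207.6 and 195.2 CPM in vehicle and at 104.6, 108.5 and 100.3 with extract. It was near its lowest level already at 20 µg/mL, and the treated libraries were level with one another. The 3 treated libraries against vehicle gave -0.94 (adjusted p = 6.1e-11), while the dose slope passed narrowly (-0.34, adjusted p = 0.0498) and was not called in 10 of its 13 alternatives, among them the runs without any 1 vehicle replicate, 100 or 500 µg/mL (adjusted p from 0.11 to 0.14). ANKRD1, a nuclear ankyrin protein, went from 13.6, 12.8 and 14.9 CPM to 9.49, 9.11 and 7.08 (slope -0.305 ± 0.04, adjusted p = 0.00021). THBS1, thrombospondin, went from 2328, 2319 and 2354 CPM to 1772, 1687 and 1436, and its slope was -0.22 ± 0.03 (adjusted p = 0.00039). F3, tissue factor, fell in graded steps from 151.6, 152.0 and 149.3 CPM to 126.4, 101.2 and 91.8, with a slope of -0.23 (adjusted p = 0.0029) that was not called without 500 µg/mL (-0.26, adjusted p = 0.052).

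Of 25 collagen and matrix genes 9 fell along the trend and 0 rose (10.5% of all genes fell), with a median slope of -0.035, and 1 fell without the 500 µg/mL library. Against vehicle 4 rose and 7 fell at 20 µg/mL (7.51% and 10.0% of all genes). At 100 µg/mL 6 rose and 12 fell (11.3% and 13.9%), and at 500 µg/mL 3 rose and 12 fell (14.4% and 16.6%). COL1A1 went from 4201, 4280 and 4276 CPM to 3888, 3675 and 3234 (slope -0.12, adjusted p = 0.00060, or 0.056 without 500 µg/mL), whereas FN1, fibronectin, did not pass (slope -0.02). HAS2, which makes hyaluronan, dropped to a plateau, from 85.8, 88.4 and 82.4 CPM to 54.5, 57.9 and 53.7, and passed in the 3 against 3 comparison (-0.63, adjusted p = 3.5e-07) but not along the dose trend (adjusted p = 0.068). CEMIP, which helps to break hyaluronan down, was graded, from 49.5, 49.6 and 55.0 CPM to 42.6, 40.1 and 30.3. Its slope of -0.22 (adjusted p = 0.0016) was not called without 500 µg/mL (-0.17, adjusted p = 0.071).

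KRT18 (ENSG00000111057, chr12:52948871-52952901, plus strand), a keratin of simple epithelia that some non-epithelial lines also make, had the smallest p of the slopes within the treated libraries among the genes named here. It was at 227.0, 220.8 and 220.7 CPM in vehicle and at 210.6, 161.7 and 113.6 at 20, 100 and 500 µg/mL. The fall was slight at 20 µg/mL and larger at each later step. Its slope from vehicle was -0.29 ± 0.03 (adjusted p = 0.00023) and its slope among the treated libraries alone was -0.44 (adjusted p = 1.5e-09), or -0.51 without 20 µg/mL (adjusted p = 1.2e-05) and -0.38 without 500 µg/mL (adjusted p = 0.00045). The call from vehicle held in all 13 alternatives run. KRT8, its usual partner, went from 18.8, 18.2 and 18.5 CPM to 19.2, 15.9 and 13.3, with a slope of -0.145 (adjusted p = 0.0027) that was -0.09 without 500 µg/mL (adjusted p = 0.21). The KRT8 and KRT18 loci overlap on opposite strands, and reads in the overlap cannot be told apart unless counting used strand, which is not given in the sources used here. Of the other epithelial markers, CDH1, EPCAM and ESRP1 had at most 3 counts in any of the 6 libraries.

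A part of the inflammatory genes was lower in the treated cells. Of 21 NF-kB and inflammatory genes tested, 9 fell and 0 rose in the 3 against 3 comparison (11.7% of all genes fell), while 7 fell and SOD2 rose along the dose trend (10.5% and 8.49% of all genes). In 10 of the 21 all treated libraries lay below all vehicle libraries (19.1% of all genes), and 3 followed a strict downward order with concentration (6.89%). The trend count of 7 became 4 without any 1 of the vehicle libraries, 100 µg/mL or 500 µg/mL, and 3 after GC correction. CCL2 (ENSG00000108691, chr17:34255218-34257203, plus strand), a monocyte chemokine, was at 39.1, 37.7 and 37.0 CPM in vehicle and at 25.75, 20.4 and 17.0 with extract. Each concentration was below the one before, with a slope of -0.37 ± 0.06 (adjusted p = 0.0053), or -0.42 without 500 µg/mL (adjusted p = 0.063). PTGS2, the inducible cyclooxygenase, went from 88.7, 88.8 and 85.3 CPM to 51.8, 55.7 and 55.4. Its treated libraries were level with one another, and the dose slope was not called (adjusted p = 0.21) while 3 against 3 was (-0.69, adjusted p = 0.018). LIF, an interleukin-6 family cytokine, went from 57.7, 57.6 and 53.6 CPM to 33.2, 29.6 and 37.6 and was lowest at 100 µg/mL. BIRC3, an inhibitor of apoptosis under NF-kB control, fell from 15.8, 14.4 and 14.0 CPM to 10.25, 10.2 and 8.44 (slope -0.25, adjusted p = 0.00080). IL6 and IL1B were not called by trend, with slopes of -0.01 and -0.02.

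Immediate early genes, the first transcriptional targets of growth factor signalling, showed 8 falls and 1 rise among 24 tested along the trend (10.5% and 8.49% of all genes), and 2 to 4 falls when a vehicle library, 100 µg/mL or 500 µg/mL was left out or GC corrected. FOSL1, an AP-1 subunit, went from 282, 256 and 270 CPM to 191, 180 and 159, with no overlap (slope -0.24, adjusted p = 0.024). EGR1 moved the other way, from 19.7, 21.3 and 18.4 CPM to 26.7, 26.6 and 26.75, the same level at each concentration. EPHA2, a receptor tyrosine kinase, fell in steps from 320, 309 and 324.5 CPM to 260, 234 and 204 (slope -0.20 ± 0.02, adjusted p = 0.00011).

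Most genes of mitosis fell. Of 25 tested, 17 fell along the trend and 0 rose (10.5% of all genes fell), with a median slope of -0.09, and in 18 all treated libraries lay below all vehicle libraries (19.1% of all genes). The count was 5 without 500 µg/mL and 20 after GC correction. AURKB, a kinase of the chromosomal passenger complex, was at 52.4, 52.1 and 52.4 CPM in vehicle and at 44.2, 40.5 and 35.7 with extract, an ordered fall with a slope of -0.17 ± 0.02 (adjusted p = 0.00035). PLK1, another mitotic kinase, went from 183, 165 and 171 CPM to 144, 129 and 118. MKI67, the proliferation marker, went from 334, 298 and 317 CPM to 275, 277.5 and 220, level at the lower concentrations, and its slope of -0.15 (adjusted p = 0.0013) was -0.10 without 500 µg/mL (adjusted p = 0.11). TOP2A and CDK1 did not pass, and CDK1 had a slope of 0.01. CCND1, cyclin D1 of the G1 phase, went from 207, 211 and 210 CPM to 170, 156 and 143 (slope -0.18 ± 0.02, adjusted p = 0.00023). Of 25 DNA replication genes, 8 fell along the trend and 0 rose (10.5% of all genes fell), with a median slope of -0.03, and 1 fell without 500 µg/mL. TK1, thymidine kinase, went from 66.1, 66.6 and 67.1 CPM to 64.0, 54.1 and 48.3, while PCNA and the helicase genes MCM3, MCM4 and MCM6 did not pass. CDKN1A, the p21 inhibitor, did not pass either (slope 0.06, adjusted p = 0.18).

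**Figure D4:**
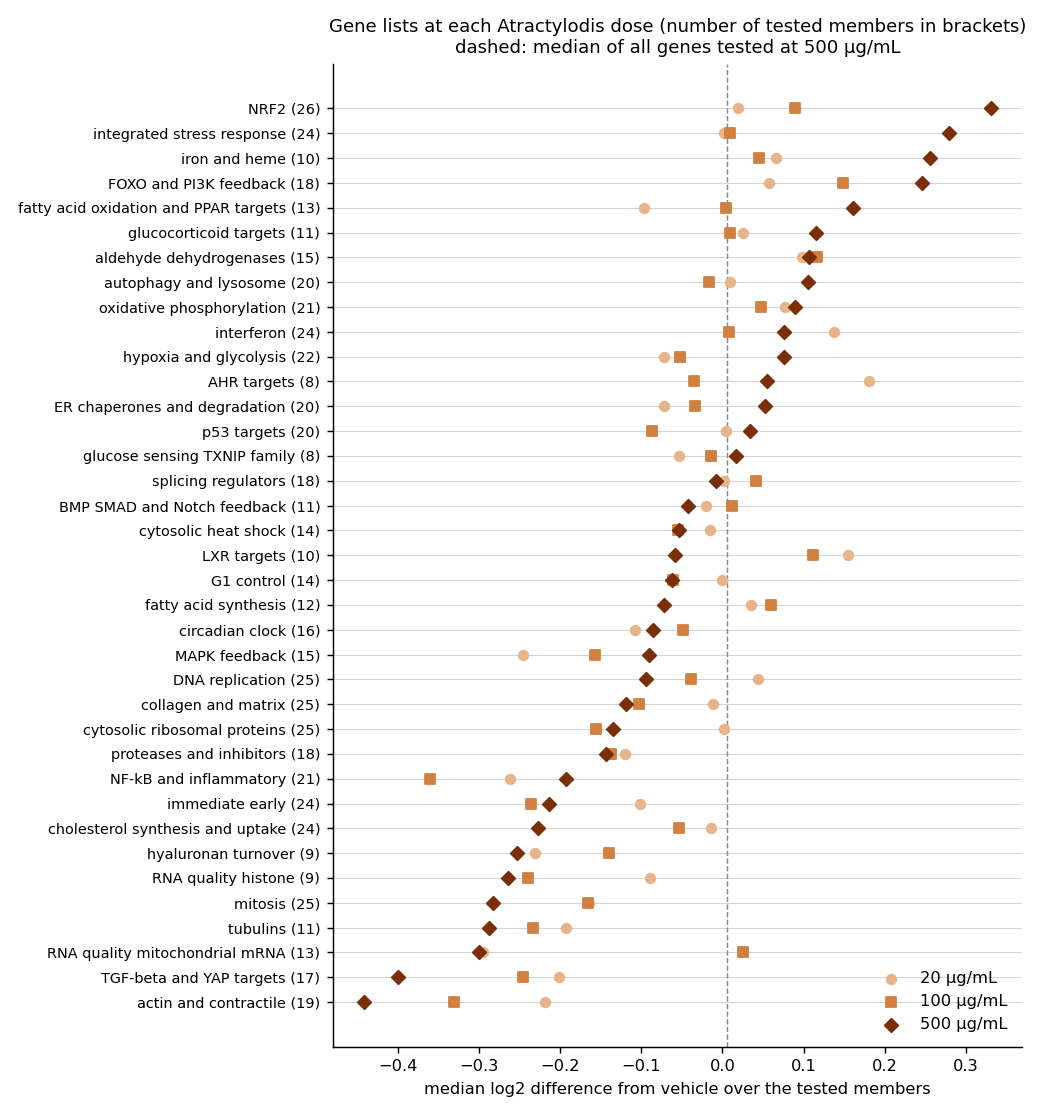
Median log2 difference from vehicle at 20, 100 and 500 µg/mL for each list with at least 8 tested genes, with the dashed line at the median of all genes at 500 µg/mL, 0.01. Actin genes are at -0.22, -0.33 and -0.44, NRF2 genes at 0.02, 0.09 and 0.33, and mitosis genes at -0.16, -0.165 and -0.28.

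The shape of the response was described for 250 genes whose largest difference from the vehicle mean was at least 1.5-fold and lay outside the vehicle range. A graded course, growing at each concentration, was the most frequent with 90 genes, 31 higher and 59 lower. The split depended on the scaling, and library totals gave 80 graded genes, 51 higher and 29 lower. A plateau, in which all 3 differences had the same sign and similar size, was followed by 54 genes, 30 higher and 24 lower, or 62 higher and 11 lower with library totals. A difference at the top concentration alone was seen in 16, a peak at 20 µg/mL in 33, a peak at 100 µg/mL in 13 and other courses in 44. A departure from the log-linear trend was called in 1167 of all tested genes (6.36%), and in 104 by DESeq2. Shape and test use the same libraries, so the shape counts carry no test of their own.

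Among the plateau genes NEAT1, the long RNA that builds paraspeckles, had the largest difference. It was at 288.0, 298.8 and 300.9 CPM in vehicle and at 571.7, 523.7 and 650.2 with extract, far from overlap (3 against 3, log2 0.98, adjusted p = 0.0032). MALAT1, a neighbouring nuclear RNA, went from 898, 904 and 931 CPM to 1111, 1199 and 1295. Of 7 long nuclear RNAs, used here as a sign of RNA quality, 3 rose along the trend (8.49% of all genes rose). Their summed level was 2064 to 2138 CPM in vehicle and 2758, 2825 and 3075 with extract. Their part in the other results was not tested. The summed level of 13 mitochondrial messenger RNAs was 48890 to 53980 CPM in vehicle and 42130, 51650 and 43050 with extract. None was called along the trend. Against vehicle 8 of the 13 fell at 20 µg/mL (10.0% of all genes fell), 0 at 100 µg/mL (13.9%) and 7 at 500 µg/mL (16.6%). The last is the concentration that carried most list counts. The part of these falls in the other results was not tested. ZSWIM4 and HTR2A, a serotonin receptor, also reached a plateau. ZSWIM4 went from 21.6, 21.1 and 20.6 CPM to 13.03, 11.8 and 10.7, and HTR2A from 5.05, 5.86 and 5.72 CPM to 8.50, 9.58 and 8.74.

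Genes that peaked at 20 µg/mL rest on the library that stood apart. C4orf48 was at 18.6, 19.0 and 19.0 CPM in vehicle, at 4.22 at 20 µg/mL, and at 16.0 and 14.1 at 100 and 500 µg/mL. The level at 20 µg/mL was 0.225 of the vehicle mean (log2 -2.16) in that 1 library, and the other concentrations lay much nearer to vehicle. CFAP298-TCP10L, a read-through of neighbouring genes whose share of reads is uncertain, showed 1.46 CPM at 20 µg/mL against 9.93, 8.97 and 8.20 in vehicle. ANGPTL4, a lipoprotein lipase inhibitor and PPAR target, was at 23.2, 23.2 and 23.4 CPM in vehicle, at 13.4 and 13.5 at 20 and 100 µg/mL and at 27.0 at 500 µg/mL, so its direction depended on concentration.

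The slope within the 3 treated libraries, which leaves out the step from vehicle, was called in 742 genes (4.04%), 276 rising and 466 falling. The count was 102 without 20 µg/mL, 153 without 500 µg/mL and 355 in DESeq2. By list it was called in 14 of 26 NRF2 genes and 9 of 24 stress response genes, all rising, and in 9 of 24 cholesterol genes and 6 of 19 actin genes, all falling. Without 20 µg/mL these counts were 11, 9, 4 and 0 in edgeR, where 12 actin genes were lower at an unadjusted p under 0.05. Without 500 µg/mL they were 1, 1, 0 and 1, with 6 cholesterol genes lower at an unadjusted p under 0.05. DESeq2 on all libraries called 9, 8, 7 and 10. PLIN2, a lipid droplet coat protein, was at 61.3, 59.6 and 59.7 CPM in vehicle and at 51.7, 58.2 and 94.6 with extract, below vehicle at first and far above it at 500 µg/mL. The slope among its 3 treated libraries was 0.44 (adjusted p = 0.0093), or 0.70 without 20 µg/mL (adjusted p = 1.4e-06) and 0.17 without 500 µg/mL (adjusted p = 0.15). CPT1A, which admits fatty acids to mitochondria, went from 34.6 to 37.6 and 45.1 CPM within the treated libraries (slope 0.19, adjusted p = 0.0035), against 37.9, 38.5 and 39.8 in vehicle. The call was lost without 20 µg/mL (0.26, adjusted p = 0.094) or 500 µg/mL (0.12, adjusted p = 0.41). Of 13 fatty acid oxidation and PPAR genes 8 rose and 0 fell at 500 µg/mL (14.4% of all genes rose). At 20 µg/mL 1 rose and 3 fell (7.51% and 10.0% of all genes), and 1 rose along the trend (8.49%). IGFBP1, a FOXO target that binds insulin-like growth factors, was at 21.6, 22.5 and 19.9 CPM in vehicle and at 19.1, 21.6 and 32.2 with extract, with a slope within the treated libraries of 0.38 (adjusted p = 0.0059), or 0.58 without 20 µg/mL (adjusted p = 0.016) and 0.18 without 500 µg/mL (adjusted p = 0.45).

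Smaller groups are given by their counts. Along the trend 8.49% of all genes rose and 10.5% fell. Of 18 FOXO and PI3K feedback genes 7 rose and 1 fell along the trend, but 1 rose without 500 µg/mL, 3 without vehicle replicate 3 and 4 without 100 µg/mL or either other vehicle replicate. SGK1, a kinase of this list, went from 61.5, 60.4 and 59.1 CPM to 69.1, 68.3 and 73.0 (adjusted p = 0.0029, or 0.051 without 500 µg/mL). Of 25 cytosolic ribosomal protein genes 8 fell and 0 rose, and 12 fell without 20 µg/mL and 5 without 500 µg/mL, and RPL11 went from 895, 883 and 880 CPM to 780, 690 and 657. Of 8 AHR targets 2 rose along the trend, CYP1B1 and ALDH1A3, and 1 without 500 µg/mL or vehicle replicate 2 or 3. CYP1B1, a cytochrome P450 of this list, went from 118, 117.5 and 110 CPM to 154, 146 and 164, while CYP1A1 was near 1 CPM throughout and did not pass. ALDH3A2, a fatty aldehyde dehydrogenase, rose in order from 51.4, 53.1 and 51.7 CPM to 64.3, 69.1 and 83.9 (slope 0.22 ± 0.02, adjusted p = 9.7e-06). TUFT1 and S1PR1 were among the 10 steepest falls. TUFT1 went from 23.6, 21.4 and 23.2 CPM to 15.9, 13.6 and 11.5. S1PR1, a sphingosine 1-phosphate receptor, went from 7.73, 8.33 and 7.90 CPM to 5.36, 5.28 and 3.79. CREBRF, a negative regulator of CREB3, was among the steepest rises, from 5.81, 5.37 and 5.79 CPM to 7.85, 8.83 and 10.4 (slope 0.28 ± 0.04, adjusted p = 0.00022).

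Poria Cocos was given at the same concentrations and shares the vehicle libraries, so the values of each extract are set side by side and the difference of the slopes was tested. It was called in 213 genes (1.16%), in 124 of which the Atractylodis slope was the higher (0.676%) and in 89 the lower (0.485%). Of the 24 stress response genes 9 were among them, as were 9 of the 20 chaperone genes, and 0 of the 26 NRF2 genes and 0 of the 19 actin genes were. The count of 213 was 0 in edgeR without the 500 µg/mL Atractylodis library, where 1407 genes had an unadjusted p under 0.05. GDF15 was at 4.40, 4.72 and 9.54 CPM under Atractylodis and at 4.06, 3.87 and 2.95 under Poria, a difference in slope of 0.43 ± 0.08 (adjusted p = 0.033). It rose at the top concentration of the first and was below vehicle at that of the second. DDIT3 was at 30.5, 27.9 and 36.1 CPM under Atractylodis and at 27.1, 22.2 and 19.0 under Poria (0.26 ± 0.04, adjusted p = 0.011), where the fall belongs to Poria. HSPA5 was at 3570, 3781 and 3869 CPM under Atractylodis and at 3608, 3170 and 2488 under Poria (0.17 ± 0.03, adjusted p = 0.012). CEMIP was at 42.6, 40.1 and 30.3 CPM under Atractylodis and at 47.1, 51.2 and 62.4 under Poria (-0.29 ± 0.04, adjusted p = 0.0048). F3 was at 126.4, 101.2 and 91.8 CPM under Atractylodis and at 133.6, 134.1 and 170.6 under Poria, opposite sides of vehicle at 500 µg/mL. KRT18 was at 210.6, 161.7 and 113.6 CPM under Atractylodis and at 198.2, 192.0 and 174.6 under Poria, lower with both and steeper with Atractylodis (-0.16 ± 0.03, adjusted p = 0.035). TXNIP, a glucose-responsive arrestin, was at 10.0, 10.6 and 6.35 CPM under Atractylodis and at 9.58, 16.3 and 216.5 under Poria, and the difference in slope was not called (adjusted p = 0.17).

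**Figure D5:**
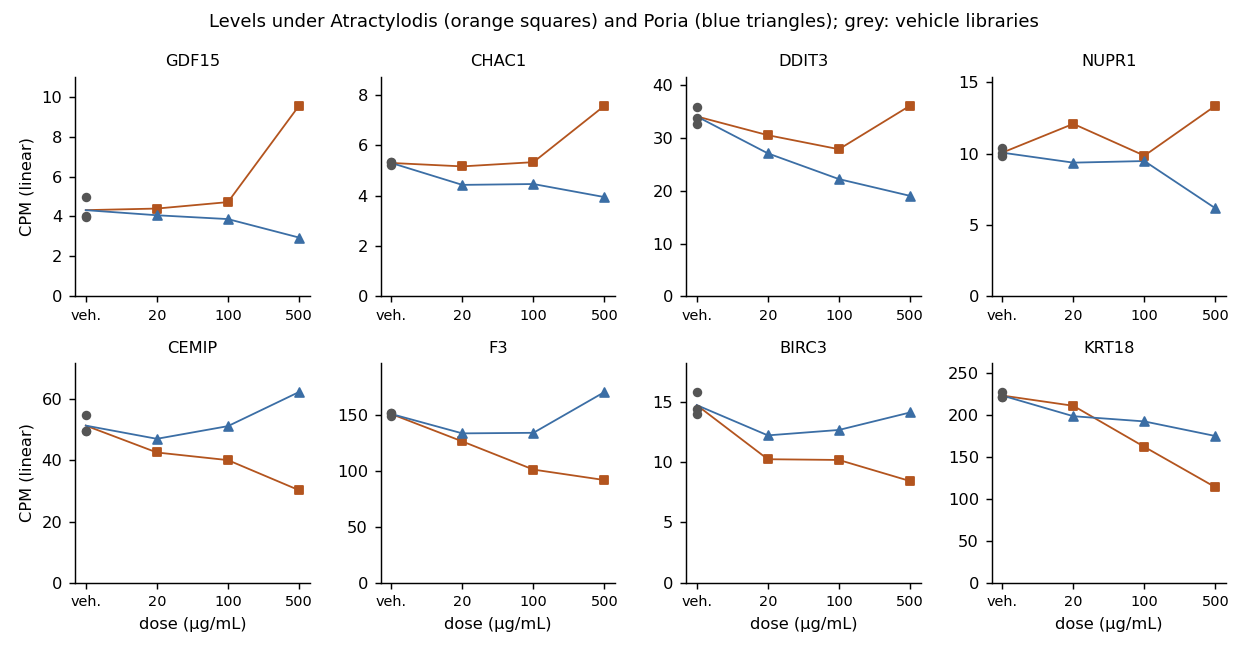
CPM of 8 genes in vehicle and at 20, 100 and 500 µg/mL of each extract, with 1 library per concentration. GDF15 and CHAC1 are high at 500 µg/mL of Atractylodis alone, CEMIP and F3 fall with Atractylodis and are above vehicle at 500 µg/mL of Poria, and KRT18 falls further with Atractylodis, to 113.6 CPM.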

How the data were processed

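Bulk RNA of SW1783 cells was sequenced. Per the labels' protocols, libraries came from RNA with an integrity number above 7, made with the MGIEasy RNA Directional kit and read as paired reads of 100 bases. Per the submitters' processing notes, FastQC 0.11.9, Trim Galore 0.6.5, STAR 2.7.3a, RSEM 1.3.3 and the hg38 build were used, and the annotation release and strand setting of the counting are not given in the sources used here. As deposited, the values are expected counts per gene that the authors made with RSEM, per the submitters' processing notes. They were rounded to whole numbers before testing. The table holds 279 sample columns, of which 9 were used and 270 belong to other samples. Symbols and positions are GRCh38, and genes with no symbol held 0.031% to 0.033% of the counts.

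Tests used edgeR 4.0.16 in R 4.3.3 on all 9 libraries, TMM-scaled, after filterByExpr with a count minimum of 10 and a total of 15, with robust quasi-likelihood fits, and calls at a Benjamini-Hochberg adjusted p under 0.05. The trend had 1 slope per extract over the steps 0, 1, 2 and 3 (6 residual degrees of freedom), and the slope within the treated libraries added an offset per extract (4). Single doses came from a fit with 1 group per extract and dose (2), whose spread comes from the vehicle libraries, and the departure from the log-linear trend was an F test in it. SE was taken as log2 change over √F. Folds and shapes are on log2 CPM with a prior count of 2. The scripts were tested on simulated data. Precision is limited by the number of libraries more than by depth, except for genes with few counts.

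Alternatives were DESeq2 1.42.0, its size factors, library totals, no filter, GC and length offsets (splines with 5 degrees of freedom), the 6 libraries alone, dose in place of the dose step, and leaving out each library. Scaling and leave-out alternatives for list counts, and those for slopes of named genes and lists within the treated libraries, were added after seeing the data. The members and lists were chosen with earlier results of these data known, and lists are described by counts and medians, with no test of the list. Genes were named from the 10 steepest slopes each way, the 5 largest changes each way in the other comparisons, the 4 largest in each shape, up to 4 list members with the smallest p, and a fixed set, and the other list members named were chosen after their values were seen. Some genes that these rules name are not reported here.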

Additional observations from a re-analysis of the deposited data

Results flagged for a closer look

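The dose trends of Atractylodis and Poria differed in 213 genes by a test of the difference between the slopes, in the same fit and with shared vehicle libraries. The genes with the largest differences, as the Atractylodis slope minus the Poria slope in log2 units per dose step, are given by value. The Atractylodis slope was the higher for the stress genes GDF15 (0.43), NUPR1 (0.27), DDIT3 (0.26) and CHAC1 (0.26) and for the prohormone convertase PCSK1 (0.27). It was the lower for CEMIP (-0.29), for tissue factor F3 (-0.26), for the noncoding RNA LINC01119 (-0.23), for the fatty acid transporter SLC27A2 (-0.23) and for BIRC3 (-0.23). PCSK1 was at 3.46, 3.16 and 4.34 CPM in vehicle, at 5.23, 5.42 and 6.30 under Atractylodis and at 4.54, 4.19 and 3.26 under Poria. LINC01119 was at 3.77, 3.82 and 4.29 CPM in vehicle, at 3.86, 4.60 and 3.91 under Atractylodis and at 4.61, 4.89 and 7.40 under Poria, so its difference belongs to Poria. Each concentration of each extract is 1 library, and the count of 213 became 0 in edgeR without the Atractylodis library at 500 µg/mL, where 1407 genes had an unadjusted p under 0.05.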

How the results depend on the processing

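No called slope of a named gene changed sign under the alternatives run. The dose trend count of 3495 ran from 1035 (without 500 µg/mL) to 3892 (without 20 µg/mL) when single libraries were left out, with 2106, 2270 and 2171 without the vehicle replicates and 2112 without 100 µg/mL, and was 67 on the linear dose scale. With library totals in place of TMM the share of calls that rose went from 44.6% to 71.4% for the trend (2689 up, 1075 down), from 46.9% to 73.1% for 3 against 3, from 42.9%, 44.9% and 46.5% to 72.9%, 65.1% and 69.9% at 20, 100 and 500 µg/mL, from 37.2% to 48.7% within the treated libraries, from 58.2% to 45.5% for the difference between extracts, from 34.4% to 63.8% for the graded shape, from 55.6% to 84.9% for the plateau, from 30.3% to 40.6% for peaks at 20 µg/mL and from 40.9% to 74.6% for other courses, while peaks at 100 µg/mL went from 8 higher and 5 lower to 7 of each. The 3 against 3 count of 4038 ran from 2557 to 4793 over left-out libraries. DESeq2 called 440, 859 and 1353 genes at 20, 100 and 500 µg/mL against 3213, 4631 and 5692, called 355 within the treated libraries against 742, and called 104 departures from the trend against 1167. The count within the treated libraries was 489 with GC correction and ran from 102 (without 20 µg/mL) to 1196 (without 100 µg/mL), with 153 without 500 µg/mL. The departures ran from 1459 to 2536 (without vehicle replicate 2). The 213 differences from Poria were 555 with no low count filter, 54 on the linear dose scale, and 0 (without 500 µg/mL) to 246 (without 20 µg/mL) over left-out libraries, with 141 without vehicle replicate 3. At a lower minimum fold the shapes held 752 graded, 411 plateau, 88 top dose only, 202 peak at 20 µg/mL, 108 peak at 100 µg/mL and 449 other genes. The cause of these differences was not tested, and the left-out fits also hold fewer libraries. Of 153 named genes called along the trend, 145 kept the call in DESeq2, 122 with GC correction, 136 with library totals, 70 without 500 µg/mL, 125 to 129 without a vehicle replicate and 15 on the linear dose scale. No paired analysis was possible because every treated library carries the number 2, so the groups share fewer than 2 numbers.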
